A study of Mus with 2 samples.

Results

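The clustered replication-dependent histone genes were followed through mouse bone marrow, cell by cell. They were taken as all genes whose symbol reads Hist1 to Hist4, then h, then 1, 2a, 2b, 3 or 4, without use of any measured value. This rule found 67 of the 32285 genes in the count matrices: 6 linker histone H1 genes, 18 H2A genes, 18 H2B genes, 12 H3 genes and 13 H4 genes. Of these, 62 had at least 50 UMIs (unique molecular identifiers, each of which marks 1 captured transcript) over both libraries. The 5 below that minimum were Hist1h1t with 23 UMIs, Hist2h2aa2 with 11, Hist1h2bq with 2, and Hist1h2ba and Hist1h2aa with 0. Their levels are not described further.

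Bone marrow of mouse hindlimbs was profiled with a droplet-based 3′ kit (Chromium, v3 chemistry) in a ground group and a running group, with 1 library each. The labels give no strain, age, number of mice or running schedule, and they do not say what ground involved. Both groups are marrow of mice with no further treatment named. Every interval below covers counting error only. No difference between the groups has a replicate check, and running cannot be told apart from differences in the mice, their handling or the preparation of each library.

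H2A, H2B, H3 and H4 are the core histones around which DNA is wound into nucleosomes, and H1 binds the linker DNA between them. Most of their genes sit in clusters and are transcribed in S phase, when new DNA must be packaged. Their mRNAs as a rule end in a stem-loop that is bound by the stem-loop binding protein Slbp instead of a poly(A) tail, and they decay when replication ends. Some of the genes also give transcripts with a poly(A) tail, which have been described in differentiated cells. The 3′ kit primes on poly(A), so the UMIs stand for that captured fraction and not for all histone mRNA.

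The ground library gave 8666 cells and the running library 9080 after filtering, with medians of 5938 and 5146 UMIs per cell. Cells with at least 2 UMIs of the proliferation genes Mki67 and Top2a together were called cycling and the rest other cells. There were 2019 cycling cells (23.3%, 95% exact binomial interval 22.4 to 24.2) in ground and 1789 (19.7%, 18.9 to 20.5) in running. The median cycling cell held 19116 UMIs in ground and 19409 in running, and the median other cell 4791 and 4305. Because the rule needs 2 UMIs, it finds deep cells more readily. Levels are given as CPM, in which the UMIs summed over the cells of a group are scaled to a common total. This scaling does not change which cells the rule finds. Each UMI marks a 3′ end, so CPM is not divided by gene length.

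Despite the poly(A) capture, the 67 genes together took 441862 UMIs (0.538% of all) in ground and 510746 (0.651%) in running. In cycling cells they stood at 9381 CPM (95% Poisson interval 9352 to 9409) in ground and 11577 (11545 to 11610) in running. In other cells they stood at 746 CPM (737 to 755) and 911 (901 to 921). Their summed level was thus 12.6-fold higher in cycling cells in ground and 12.7-fold in running, and cycling cells held 93.6% and 93.4% of their UMIs. On the log2 scale this was 3.65 and 3.67, which became 2.38 and 2.44 when the cycling rule was applied after thinning each cell to 2000 UMIs. Among single members, 56 of the 62 were at least 2-fold higher in cycling cells in both libraries. Over all 13738 genes with at least 50 UMIs, 23.5% were. At 8-fold or more the count was 39 of 62, against 3.84% of all genes, and 10 members were at least 32-fold higher in both. None was at least 2-fold lower in both libraries, against 17.5% of all genes. The median log2 ratio of cycling over other cells was 3.79 in ground and 3.85 in running, beside 0.18 and 0.15 for all genes.

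**Figure D1:**
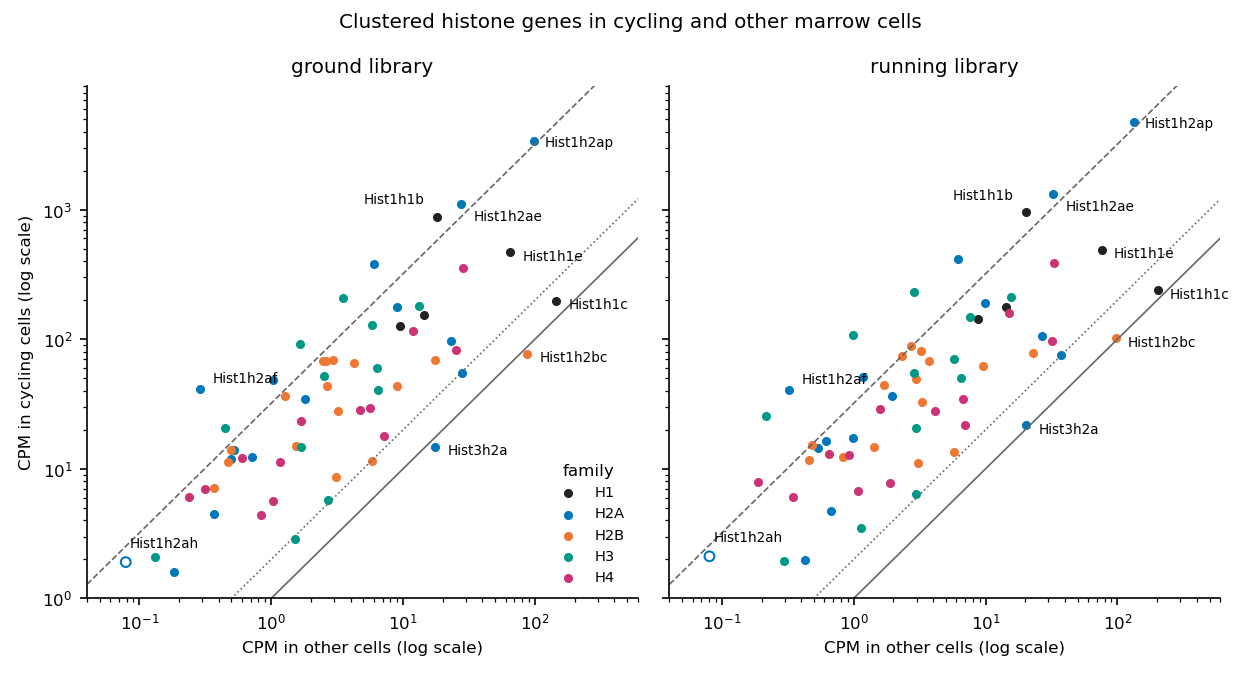
Each point is 1 of the 62 members, placed by its CPM in other cells (x axis) and in cycling cells (y axis), both on log scales, in the ground (left) and running (right) library and coloured by family. The solid line marks equal levels, the dotted line 2-fold and the dashed line 32-fold. Hist1h2ah had no UMI in other cells and is drawn as an open circle at the level of 3 UMIs. Most points lie between the dotted and the dashed line, whereas Hist1h2bc and Hist3h2a lie on or near the solid one.

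The H1 genes ranged from a member that was much higher in cycling cells to a member that was similar in both states. Hist1h1b (chr13:21779832-21780625 in GRCm38.p6) stood at 882 CPM in cycling and 18.0 CPM in other ground cells, and at 952 and 20.4 CPM in running, a log2 ratio of 5.61 and 5.54. Hist1h1c (chr13:23738807-23739531) stood at 197 and 144 CPM in ground, and 238 and 202 in running, a log2 ratio of only 0.45 and 0.24. Of all members, Hist1h1c had the highest level in other cells. Hist1h1e (chr13:23621777-23622558; 468 and 64.7 CPM in ground, 488 and 75.9 in running) lay between them, at 2.85 and 2.69. Hist1h1d (155 and 14.3 CPM, then 177 and 14.4) had log2 ratios of 3.43 and 3.62, and Hist1h1a (127 and 9.47 CPM, then 144 and 8.81) of 3.74 and 4.03. Summed H1 had a log2 ratio of 2.87 in ground and 2.64 in running, and without Hist1h1c of 3.94 and 3.88.

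H2A gave most of the histone UMIs, and most of those came from a single gene symbol. Hist1h2ap stood at 3404 CPM in cycling and 97.9 CPM in other ground cells and at 4769 and 134 CPM in running. It held 34.8% of all member UMIs in ground and 39.4% in running, with log2 ratios of 5.12 and 5.16. RefSeq lists this symbol at 2 places on chromosome 13, at chr13:21810367-21810918, where Hist1h2ao is also listed, and at chr13:21833024-21833475. The copies are near-identical, so how reads were divided between Hist1h2ap and Hist1h2ao is uncertain; Hist1h2ao itself had 77 and 97 UMIs. Next came Hist1h2ae (chr13:23570663-23571220), at 1104 and 27.5 CPM in ground and 1317 and 32.6 in running, and Hist1h2ab (chr13:23751088-23751592), at 381 and 6.05 CPM and at 414 and 6.23 CPM. Their log2 ratios were 5.33 and 5.34 for Hist1h2ae and 5.98 and 6.06 for Hist1h2ab. Hist2h2ac (chr3:96220413-96220880; 179 and 9.05 CPM, then 190 and 9.94) had 4.30 and 4.26.

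The members with the highest ratios were also H2A genes. Hist1h2af (chr13:23533875-23534378) stood at 41.3 CPM in cycling ground cells and 40.3 CPM in running, with 11 and 12 UMIs in all other cells, which made it 143-fold and 125-fold higher in cycling cells. Hist1h2ah had 84 and 87 UMIs in cycling cells and 0 in other cells. Set against a floor of 3 UMIs over all other cells of the library, it was at least 24.2-fold higher in ground and at least 26.2-fold in running. At the low end of the family, Hist3h2a (chr11:58954685-58955192) stood at 14.8 and 17.4 CPM in ground but at 21.6 and 20.4 in running, a log2 ratio of -0.23 (-0.39 to -0.07) and 0.08 (-0.06 to 0.22). Its ratio differed between classes, with -1.19 and -1.06 in B-cell precursor-like and 0.35 and 0.86 in immature neutrophil-like cells. Hist2h2aa1 (55.3 and 28.1 CPM, then 75.8 and 37.6) had 0.98 and 1.01. Of the 16 H2A genes over the minimum, 14 were at least 2-fold higher in both libraries.

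H2B genes summed to lower levels than H2A genes, and the gene with most UMIs had similar levels in both states over the whole marrow. Hist1h2bc (chr13:23684199-23692480) stood at 77.1 CPM in cycling and 87.9 CPM in other ground cells, and at 101 and 96.9 CPM in running. Its log2 ratio was -0.19 (-0.26 to -0.12) in ground and 0.07 (0.00 to 0.13) in running. Within classes it was higher in cycling cells, by 1.61 and 1.36 in B-cell precursor-like, 1.10 and 0.95 in immature neutrophil-like, 0.52 and 1.17 in monocyte-like and 0.11 (-0.52 to 0.83) and 1.39 in erythroid-like cells. Its level in other cells pooled over the marrow includes the mature neutrophil-like cells described below. Hist3h2ba, which neighbours Hist3h2a, stood at 11.4 and 5.86 CPM and at 13.4 and 5.80 CPM, or 0.96 and 1.20. The other 14 of the 16 H2B genes over the minimum were at least 2-fold higher in both libraries, and the family's median was 4.01 and 3.96. Its summed ratio was 2.13 and 2.23, since Hist1h2bc weighs heavily in other cells.

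H3 and H4 genes were nearly all higher in cycling cells, 11 of 12 and 13 of 13 by at least 2-fold in both libraries. Hist1h3c (chr13:23745042-23745521), the leading H3 gene, stood at 209 and 3.50 CPM in ground, with 231 and 2.85 in running, a log2 ratio of 5.90 and 6.34. Hist1h3b (91.2 and 1.66 CPM, then 109 and 0.99) had 5.78 and 6.77, and Hist1h3g (20.8 and 0.45, then 25.4 and 0.21) had 5.54 and 6.89. Hist1h3e (180 and 13.2, then 213 and 15.6) and Hist1h3f (128 and 5.84, then 148 and 7.66) had 3.77 and 4.46 in ground and 3.77 and 4.28 in running. The exception among H3 genes was Hist2h3c2, with 0.91 in ground and 1.62 in running, and Hist2h3c1 was next with 1.09 and 1.11. Hist1h4d (chr13:23581568-23581969) led the H4 genes at 358 and 28.3 CPM in ground, with 385 and 32.9 in running, or 3.66 and 3.55. Hist1h4h (117 and 11.9 CPM, then 158 and 14.97) followed with 3.29 and 3.40.

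The makeup of the histone UMIs therefore differed between the states. In cycling cells H2A made up 57.6% of member UMIs in ground and 61.1% in running, H1 19.5% and 17.3%, and H2B 6.79% and 6.54%. In other cells H2A made up 28.8% and 30.1%, H1 33.6% and 35.3%, and H2B 19.5% and 17.7%. H3 took between 5.47% and 8.61% and H4 between 6.97% and 11.9% in the 4 sets of cells. Captured UMIs of the core families were thus far from the equal parts in which the proteins enter a nucleosome.

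The members were set beside 5 lists of related genes. Of 35 S phase genes and 30 mitosis genes, all 35 and all 30 were at least 2-fold higher in cycling cells in both libraries, with medians of 3.76 and 3.65 for S phase and 4.94 and 5.16 for mitosis. Among S phase genes, Ccne2 (5.001 and 4.87) and Rrm2 (4.80 and 5.04) were near the top of the list, and at its lower end were Ung (2.74 and 2.61), E2f1 (2.47 and 2.42) and Pold1 (1.98 and 1.94). The mitosis list, from the same phase as the sorting genes Mki67 and Top2a, ran from Hmmr (5.77 and 5.75), Ttk (5.66 and 5.34) and Tpx2 (5.55 and 5.61) down to Cenpa (3.28 and 3.28), Kif23 (2.28 and 2.09) and Cks2 (2.18 and 2.13). The members' median thus lay near that of the S phase genes.

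Replication-independent variants, which are also made outside S phase, passed 2-fold in both libraries for 6 of 11 tested genes. The centromeric H3 variant Cenpa, H2afx (3.98 and 3.94) and the linker variant H1fx (2.94 and 2.97) were highest, whereas H2afj (0.32 and 0.23), H3f3b (0.37 and 0.24) and H3f3a (-0.13 and -0.16) were near 0. H3f3a, a gene for the H3.3 variant, stood at 1931 and 2115 CPM in ground, with 1913 and 2131 in running. In cycling ground cells its captured UMIs alone exceeded those of the whole H3 family, at 808 CPM. Since member mRNAs as a rule lack the poly(A) tail on which the kit primes, this does not compare all H3 mRNA. Of 23 genes for histone mRNA 3′ end formation and decay, 13 passed 2-fold in both, and none passed 8-fold. Slbp itself led with 2.28 and 2.11, followed by Lsm11 (1.92 and 1.72), a subunit of the U7 particle that cuts histone pre-mRNA, and the exonuclease gene Eri1 (1.90 and 1.81). Lsm10 (-0.54 and -0.85), the partner of Lsm11, and the polyadenylation factor genes Cstf2t (-0.46 and -0.34) and Wdr33 (0.18 and 0.24) were lowest. Among 19 histone chaperone genes, 14 passed. Asf1b (4.84 and 4.76), Chaf1a (4.32 and 4.40) and Nasp (2.97 and 3.04), which handle newly made histones, were highest, and Ubn1 (0.34 and 0.23), Atrx (0.16 and 0.08) and Daxx (-0.29 and -0.29), which serve H3.3, were lowest.

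Single cells differed widely in their histone load, that is the percent of a cell's UMIs that came from the members. The median cycling cell had a load of 0.689% in ground and 0.892% in running, with quartiles of 0.117% and 1.55% in ground and 0.152% and 2.06% in running. The highest loads were 5.39% and 6.17%. A load of 1% or more was found in 853 cycling cells (42.2%) in ground and 855 (47.8%) in running. By contrast, 425 cycling cells (21.1%) in ground and 346 (19.3%) in running had loads under 0.1%. Of the S phase and mitosis UMIs of these low-load cells, 59.4% and 63.8% were mitosis UMIs, against 47.3% and 47.2% at loads of 0.1% to 1% and 53.5% and 53.9% at 1% or more, so the share did not follow the load in 1 direction. The median other cell had a load of 0.0583% in ground and 0.0695% in running.

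Among other cells, 50 in ground (0.752%) and 45 in running (0.617%) had loads of 1% or more. They were shallow, with medians of 913 and 991 UMIs, and their S phase genes summed to 6273 and 6754 CPM, against 326 and 340 CPM in the remaining other cells. In ground 23 of them were monocyte-like and 21 erythroid-like, and in running 10 and 32. Shallow cells with S phase transcripts are thus partly placed among the other cells by the rule of 2 UMIs.

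**Figure D2:**
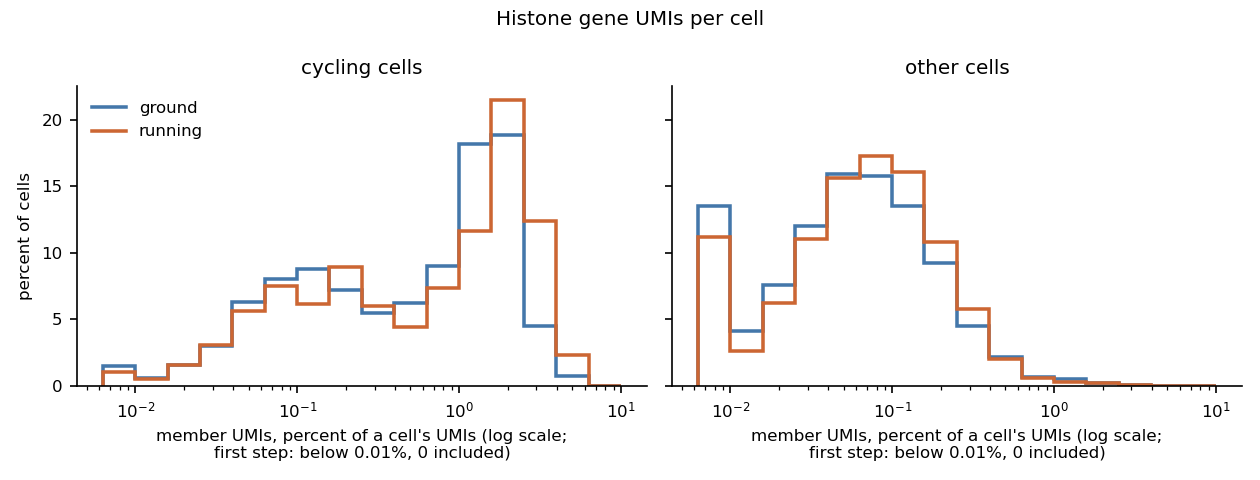
Histograms of the percent of each cell's UMIs that came from the 67 members (x axis, log scale) against the percent of cells (y axis), for cycling cells on the left and other cells on the right, with the ground library in blue and the running library in orange. Cycling cells form a broad low group and a high group above 1%, which holds 42.2% of ground and 47.8% of running cycling cells. Other cells lie almost entirely below 1%.

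Cells were next compared by class. The classes were rebuilt from clusters and marker genes, with the members kept out of the clustering. The marrow gave 16 classes of blood, immune and stromal cells, and the 8 with at least 200 cells in each library were compared. Among the 5 classes with at least 50 cycling cells in each library, cycling levels were highest in B-cell precursor-like cells, at 14966 CPM in ground and 18269 in running, and lowest in the progenitor class that resembles haematopoietic stem cells (HSC) and multipotent progenitors, at 6945 and 9323. Cycling erythroid-like cells had 10642 and 11224 CPM, immature neutrophil-like cells 10169 and 11804, and monocyte-like cells 9918 and 13194. The median cycling B-cell precursor-like cell held 8207 UMIs in ground but 13226 in running, so this class differed in depth between the libraries. Cycling cells made up 83.4% and 79.1% of the HSC and multipotent progenitor-like class, 78.0% and 74.8% of erythroid-like cells, 28.4% and 31.7% of B-cell precursor-like cells and 18.5% and 15.9% of immature neutrophil-like cells.

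The gap between states differed between classes, and states and clusters partly coincided. The level of other cells is the denominator of this ratio, so a low level there raises it. In immature neutrophil-like cells that did not pass the cycling rule, members stood at 365 CPM in ground and 448 in running, the lowest of the 8 classes, and the log2 ratio of cycling over other was 4.80 and 4.72. There, 55 of 57 members with at least 50 UMIs were at least 2-fold higher in both libraries, against 23.1% of all genes. The exceptions were Hist3h2a and Hist1h2bc. Cycling and other immature neutrophil-like cells lay mostly in different clusters. Cluster 7 held 90.5% and 92.9% of the cycling cells, at 10772 and 12234 CPM. It held 2.07% and 0.996% of the other cells, at 1892 and 783 CPM. In cluster 0, cycling cells stood at 484 and 502 CPM and other cells at 326 and 368 CPM. Monocyte-like cells had ratios of 3.37 and 3.58 (51 of 59 members, against 9.16% of genes), and B-cell precursor-like cells 2.77 and 2.99 (44 of 55, against 10.3%). In monocyte-like cluster 6, cycling cells stood at 1086 and 1691 CPM and other cells at 896 and 1051. The gap was larger in B-cell precursor-like cluster 10, at 15313 and 18448 CPM against 1491 and 1845. Erythroid-like cells outside the rule still held 3723 CPM in ground and 5269 in running, so their ratio was 1.52 and 1.09 and 32 of 59 members passed, against 17.4% of genes. These erythroid-like cells numbered 119 and 118 and were shallow, with medians of 1669 and 1099 UMIs. None was in cluster 8, which held 66.8% and 69.8% of the cycling erythroid-like cells. B cell-like cells outside the rule had 928 and 1075 CPM, and T cell-like cells 535 and 570.

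**Figure D3:**
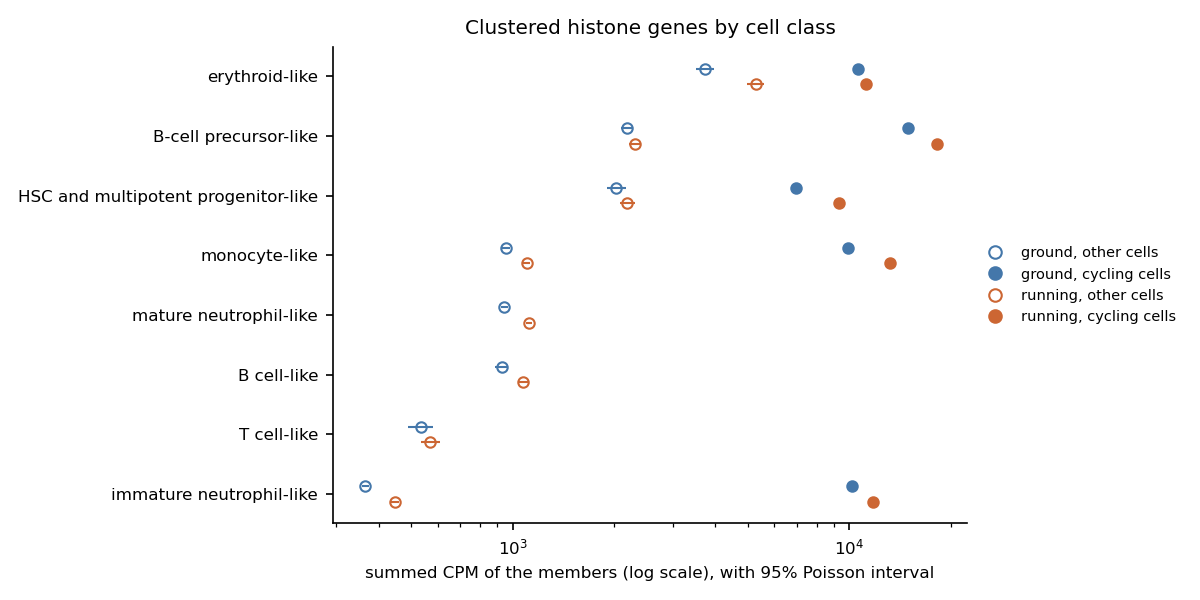
Summed member CPM (x axis, log scale) in 8 cell classes, for other cells (open circles) and cycling cells (filled circles) of the ground (blue) and running (orange) library. Bars are 95% Poisson intervals and are often smaller than the circle. Cycling cells are drawn for the 5 classes with at least 50 of them in each library, and other cells of the HSC and multipotent progenitor-like class number only 38 and 46. All cycling values lie above all values of other cells, and immature neutrophil-like other cells are lowest at 365 and 448 CPM.

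Members also differed between neutrophil-like classes outside the cell cycle. Neutrophil precursors divide and fill granules, and mature neutrophils have left the cycle for good. Of the immature neutrophil-like class, 18.5% and 15.9% of cells passed the cycling rule. Only the cells outside the rule were compared here, in both classes. Mature neutrophil-like cells held only 1.03% (ground) and 0.337% (running) cycling cells, yet their other cells carried a higher summed CPM of the members than those of the immature neutrophil-like class. The levels were 945 CPM against 365 CPM in ground and 1118 against 448 in running, a log2 ratio of 1.37 (1.32 to 1.42) and 1.32 (1.27 to 1.37). This is a share of captured UMIs and not an amount per cell. In ground, members had 6305 UMIs in 1831 mature cells and 6159 in 2074 immature ones. In running they had 8797 in 2367 and 5954 in 2008. This comparison was made after the class values had been seen. Of 27 members with at least 50 UMIs in these cells, 8 were at least 2-fold higher in mature cells in both libraries, against 11.9% of genes, and 1 was at least 2-fold lower, against 10.1%.

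Hist1h2bc showed the largest difference, with 307 CPM in mature and 31.7 CPM in immature cells of ground and 290 and 34.2 CPM in running, a log2 ratio of 3.27 (3.14 to 3.41) and 3.08 (2.94 to 3.23). Hist1h1c stood at 281 against 90.0 CPM in ground and 372 against 135 CPM in running (1.64 and 1.47). Within immature neutrophil-like cells both genes were nonetheless higher in cycling than in other cells, Hist1h1c by 2.01 and 1.60 and Hist1h2bc by 1.10 and 0.95. The further 6 were Hist1h2be (39.6 against 7.41 CPM, then 49.5 against 7.45), Hist1h4i (57.6 against 14.6, then 74.1 against 15.1), Hist2h2aa1 (60.8 against 18.1, then 75.7 against 26.7), Hist1h2ac, Hist2h3c1 and Hist3h2a. The gene that was lower was Hist1h4d, at 4.05 against 22.3 CPM and 6.10 against 24.5 CPM. Hist1h2ap, the most abundant member of cycling cells, hardly differed, at 0.09 in ground and 0.27 in running.

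Hist1h1c and Hist1h2bc together made up 62.2% of member UMIs in mature neutrophil-like cells of ground and 59.3% in running, against 33.3% and 37.7% in immature ones. Within H1, the share of Hist1h1c went from 18.8% and 19.7% in cycling immature cells to 62.9% and 70.7% in other immature cells and to 88.6% and 89.1% in mature ones. Since mature cells were shallower, with medians of 3418 and 3101 UMIs against 7679 and 6227, the share of cells with a UMI was also taken after each cell was thinned to 1000 UMIs. This left out 29 and 11 mature and 26 and 12 immature cells. Hist1h2bc was then found in 26.4% of mature cells in ground and 24.1% in running, in 3.27% and 3.86% of immature cells, and in 0% and 0.369% of T cell-like cells. Hist1h1c was found in 21.1% and 25.8% of mature, 8.69% and 11.0% of immature, and 4.55% and 7.75% of T cell-like cells. Different clusters held most of the mature class in each library, clusters 3 and 4 in ground and clusters 17 and 18 in running.

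The share of cells with a member UMI bears on free RNA, which droplets can take up from broken cells. Thinned to 1000 UMIs, Hist1h2ap was found in 65.2% of cycling cells in ground and 68.7% in running (89.7% and 93.2% before thinning). It was found in 8.65% and 10.7% of other cells (30.6% and 34.9% before thinning). T cell-like other cells gave 3.54% and 5.17%, mature neutrophil-like cells 5.77% and 9.17%, and erythroid-like other cells 51.1% and 52.4%. Hist1h1b was found in 41.3% and 42.8% of cycling cells and in 2.001% and 2.12% of other cells. The part of free RNA in the low shares was not tested. The thinning left out 42 and 37 cycling cells and 299 and 279 other cells.

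To place the members within the cell cycle, cycling cells with at least 10 UMIs of the S phase and mitosis lists were ordered by the mitosis share of those UMIs and divided into 4 bins of equal size in each library, from S phase-rich (bin 1) to mitosis-rich (bin 4). This left out 173 cycling cells in ground and 124 in running. Members stood at 7148, 11115, 11265 and 8223 CPM in bins 1 to 4 of ground and at 8468, 12947, 16103 and 8649 CPM in running. The S phase genes stood at 5876, 6570, 3136 and 1016 CPM in ground, and at 5933, 5963, 2807 and 936 in running. The captured histone transcripts were therefore highest in the middle bins, where S phase and mitosis genes overlapped, and they remained high in bin 3 where the S phase genes were lower. Of the 62 members, none was highest in bin 1 in either library. In ground 29 were highest in bin 2, 25 in bin 3 and 8 in bin 4, and in running 11, 49 and 2. The bin of the highest value was the same in both libraries for 36 members. With the ground limits applied to both libraries, running stood above ground in every bin, by 0.19, 0.20, 0.50 and 0.21 on the log2 scale.

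Members differed in where in this order they were high. Hist1h1a stood at 145, 186, 120 and 47.7 CPM in bins 1 to 4 of ground and at 151, 198, 158 and 44.7 CPM in running, so that bin 1 exceeded bin 4 by 1.61 and 1.76 on the log2 scale. Over all members the median of that ratio was -0.30 and -0.32. The 4 neighbouring genes Hist1h4b, Hist1h4a, Hist1h3a and Hist1h1a, which close the largest cluster at chr13:23756937-23764412, all had bin 1 above bin 4, and their sum had a ratio of 1.35 in ground and 1.504 in running. The 4 genes just before them, from Hist1h3c to Hist1h3b, gave -0.73 and -0.68. Of the 2298 UMIs of the first group in bin 1 of ground, 1526 came from Hist1h1a. Members elsewhere also had bin 1 above bin 4 in both libraries, among them Hist4h4 (0.71 and 0.91), Hist1h4i (0.62 and 0.75), Hist1h4j (0.61 and 1.29) and Hist1h1b (0.46 and 0.65). On the late side were, for example, Hist2h2ab (-1.47 and -1.37), Hist1h1c (-0.97 and -0.92), Hist1h2af (-0.94 and -0.82) and Hist1h4d (-0.90 and -0.82). The 4-gene group, and the genes named for their bins, were chosen after their values had been seen.

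For single classes the cycling cells were divided into 4 bins anew within each class and library, so these bins have other limits than those of the whole marrow. The ratio of the first over the last of them lay on both sides of 0. Within immature neutrophil-like cells, the first bin exceeded the last for all members together by 1.59 in ground and 1.95 in running, and within monocyte-like cells by 0.85 and 1.67. Within B-cell precursor-like cells the ratio was -0.82 and -1.10, in the HSC and multipotent progenitor-like class -1.32 and -1.29, and in erythroid-like cells -0.17 and -0.08. As sums, the 4 genes from Hist1h4b to Hist1h1a lay above the 4 genes from Hist1h3c to Hist1h3b in all 5 classes and both libraries. In the HSC and multipotent progenitor-like class, for instance, they gave -0.06 and -0.08 against -2.10 and -2.08, and in immature neutrophil-like cells 2.83 and 4.21 against 1.30 and 1.60. Most UMIs of the first group came from Hist1h1a and Hist1h3a. Single members did not always follow the sum. In erythroid-like cells Hist1h1a gave 0.49 and 0.60 and Hist1h3a -0.17 and -0.05. There Hist1h4b gave -0.40 and 0.04 and Hist1h4a -0.49 and -0.45, beside -0.49 and -0.33 for Hist1h2ab of the second group.

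**Figure D4:**
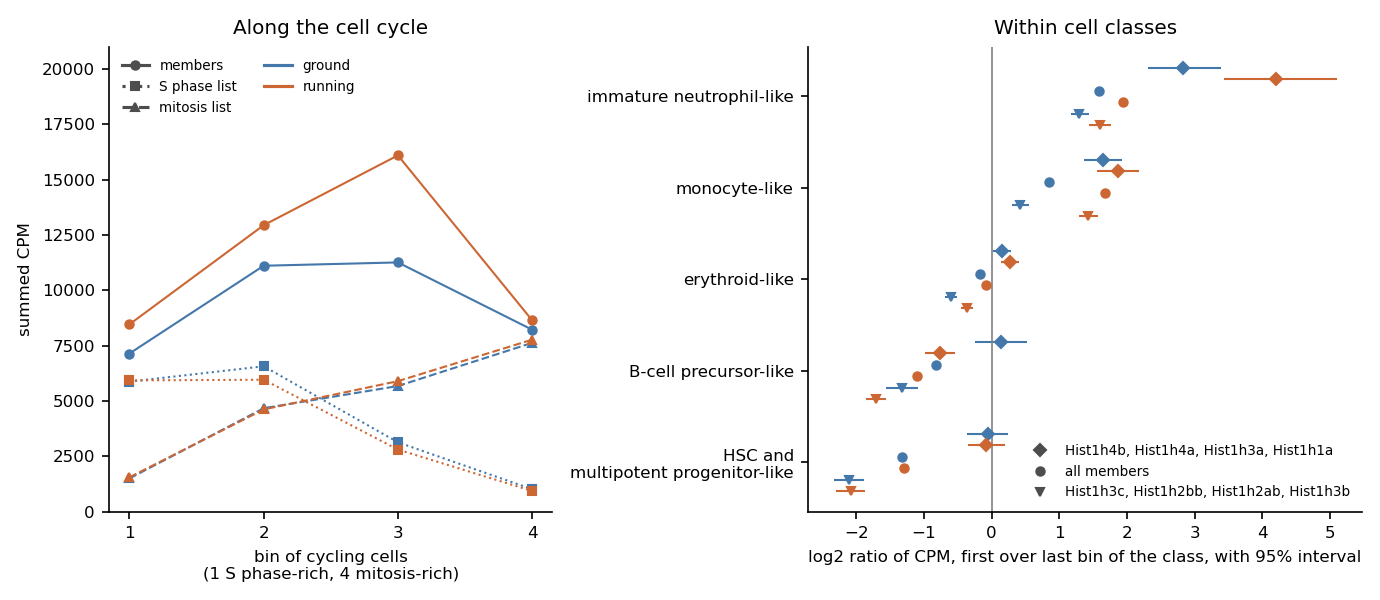
Left, summed CPM (y axis) of the members, the S phase list and the mitosis list in 4 bins of cycling cells (x axis), in ground (blue) and running (orange). Right, log2 ratio of CPM in the first over the last of 4 bins cut within each of 5 classes (x axis), for all members and for 2 groups of 4 neighbouring genes, with 95% exact conditional binomial intervals. Members are highest in bins 2 and 3, and the group that ends in Hist1h1a lies to the right of the other group in each class.

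The cycling ratio was also set beside position and gene span, as a description of these genes only. The 2 Hist3 genes on chromosome 11 (chr11:58948911-58955192) had a median log2 ratio of 0.37 in ground and 0.64 in running, and Hist4h4, alone on chromosome 6 (chr6:136803993-136804431), had 1.33 and 1.65. The 10 genes on chromosome 3 (chr3:96219885-96270192), 9 of them over the minimum, had 2.60 and 2.75. On chromosome 13 the 3 stretches with values had 4.32 and 4.25 (chr13:21715711-21837530), 4.74 and 4.74 (chr13:22035122-22043658), and 3.76 and 3.90 (chr13:23531044-23764412). Ratios within a stretch spread more widely than these medians. In the last of them they ran from -0.19 to 7.16 in ground and from 0.07 to 6.96 in running. Whether position went with the ratio was not tested. RefSeq gives 6 members a span of at least 1000 bases, from 2667 to 37455: Hist1h2bp, Hist1h2bq, Hist1h2br, Hist1h2be, Hist1h2bc and Hist2h2be. The 5 of them over the minimum had medians of 1.98 and 1.86, against 3.88 and 3.96 for the shorter genes. They ranged from -0.19 to 4.27 in ground and from 0.07 to 4.68 in running. They are all H2B genes, so long genes of other families could not be compared. The 16 H2B genes over the minimum, these 5 among them, had medians of 4.01 in ground and 3.96 in running. Whether span went with the ratio within the H2B family was not tested.

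Members were somewhat higher in running than in ground. Summed CPM over all cells was higher by 0.28 on the log2 scale (0.27 to 0.28), in cycling cells by 0.30 (0.30 to 0.31) and in other cells by 0.29 (0.27 to 0.31). No member differed by 2-fold or more over all cells (2.48% of all genes were at least 2-fold higher in running and 0.539% lower), nor in cycling cells (3.89% and 1.39%). In cycling cells 58 of 62 members lay above 0, against 63.8% of all genes, and over all cells 56 of 62, against 69.8%. The members' median in cycling cells was 0.22, beside 0.06 for all genes, -0.02 for S phase genes and 0.01 for mitosis genes. In other cells 43 of 61 members with a value lay above 0, against 70.2% of all genes, 2 were at least 2-fold higher in running (3.22% of all genes) and 1 lower (1.11%), each on few UMIs. By family, cycling cells gave 0.13 for H1, 0.39 for H2A, 0.25 for H2B, 0.21 for H3 and 0.20 for H4.

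Much of the H2A difference came from Hist1h2ap, which was higher in running by 0.46 over all cells, 0.49 (0.48 to 0.50) in cycling cells and 0.45 in other cells. Without it, the summed members differed by 0.17, 0.19 and 0.26. Over all cells, the highest ratios among single members were those of Hist1h2bp (0.67), Hist1h4m (0.57), Hist2h3b (0.50), Hist1h4n (0.50) and Hist1h2ad (0.47). The lowest were Hist1h2af (-0.07), Hist1h2bf (-0.06), Hist2h4 (-0.06), Hist1h3h (-0.03) and Hist1h4f (-0.00).

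Several of the highest ratios belonged to neighbours. The 7 members from Hist1h2bp to Hist1h2br (chr13:21787483-21837530) form the end of a stretch of chromosome 13, and Hist1h2ap is among them. They were grouped after their values had been seen. In cycling cells, Hist1h2bp stood at 7.10 CPM in ground and 11.7 in running, Hist1h4m at 4.38 and 6.80, Hist1h4n at 5.65 and 7.72, and Hist1h2br at 43.3 and 61.9. The corresponding log2 ratios were 0.72 (0.51 to 0.93), 0.63 (0.37 to 0.91), 0.45 (0.21 to 0.70) and 0.52 (0.43 to 0.60). Hist1h2ao gave 0.31 (-0.17 to 0.79), and Hist1h2bq had no UMI in cycling cells. Summed without Hist1h2ap, the group gave 0.54 (0.47 to 0.61), close to the 0.49 of Hist1h2ap itself, whereas the other 11 members of the same stretch gave 0.12 (0.10 to 0.14). Hist1h2an, the neighbour just before Hist1h2bp, stood at 48.4 and 51.1 CPM, or 0.08 (-0.01 to 0.17). Members elsewhere also reached such ratios, among them Hist3h2a (0.55), Hist1h2ad (0.50) and Hist2h3b (0.49). Of the 2734 ground UMIs in the sum without Hist1h2ap, 1909 came from Hist1h2br. Most UMIs of the other 11 members in cycling cells likewise came from Hist1h1b, so their sum mainly reflects that gene. In other cells the group without Hist1h2ap did not stand out, at 0.24 (0.05 to 0.43). There the other 11 members of the stretch gave 0.16 (0.04 to 0.28), all members outside the 7 gave 0.26, and Hist1h2ap gave 0.45.

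**Figure D5:**
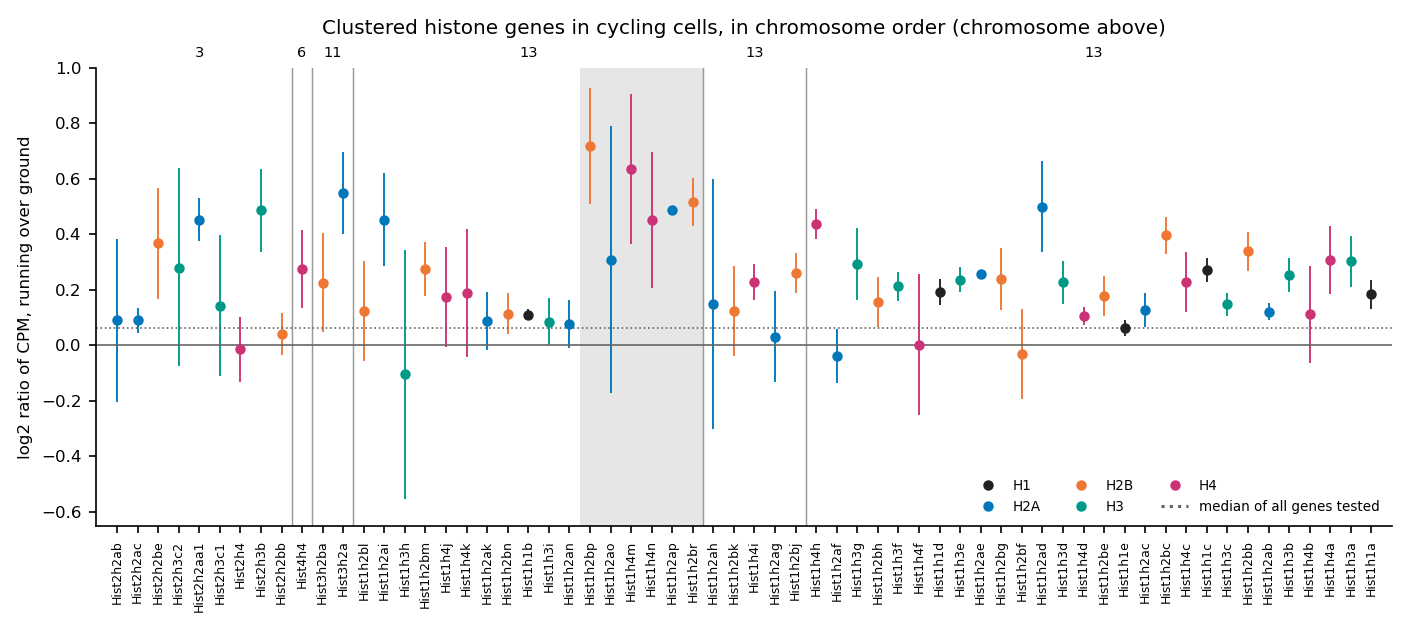
Log2 ratio of CPM in cycling cells, running over ground (y axis), for the 62 members in chromosome order (x axis), coloured by family, with 95% exact conditional binomial intervals. Vertical lines separate stretches, the dotted line is the median of all genes tested at 0.06, and the shaded band holds the members from Hist1h2bp to Hist1h2br, with Hist1h2ap drawn at the second of its 2 places. The 6 shaded points lie between 0.31 and 0.72, and Hist1h2an just to their left lies at 0.08.

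The same comparison was repeated in the cycling cells of each class. In monocyte-like cells the group without Hist1h2ap gave 0.66 (0.49 to 0.84), Hist1h2ap 0.69, and the other 11 members of the stretch 0.11. In the HSC and multipotent progenitor-like class the values were 0.73 (0.51 to 0.95), 0.66 and 0.07. They were smaller in B-cell precursor-like cells, at 0.33 (0.12 to 0.54), 0.40 and 0.10, and in erythroid-like cells, at 0.26 (0.11 to 0.41), 0.29 and -0.05. In immature neutrophil-like cells the group gave 0.21 (0.04 to 0.37), Hist1h2ap 0.43 and the other members 0.06, and there Hist1h2bp, Hist1h2ao and Hist1h4m were not above 0. Hist1h1b weighed heavily in the sum of the other 11 members, with 9047 of their 11225 UMIs in cycling monocyte-like ground cells.

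For all members together, the ratio of running over ground was also taken by class. In cycling cells of the HSC and multipotent progenitor-like class they were higher in running by 0.42, with 51 of 56 members above 0 (51.4% of all genes), and in monocyte-like cells by 0.41, with 53 of 58 (49.0%). Cycling B-cell precursor-like cells gave 0.29 and 52 of 54 members (39.3%), beside the difference in depth given above. Cycling erythroid-like cells gave 0.08, with 22 of 59 members above 0 (55.9%), and cycling immature neutrophil-like cells 0.22, with 30 of 57 (62.4%). In the latter classes the ratio without Hist1h2ap was -0.04 and 0.04. Over all cells of a class, members above 0 numbered 55 of 55 in B-cell precursor-like (40.5% of all genes), 50 of 57 in HSC and multipotent progenitor-like (51.0%), 49 of 59 in monocyte-like (49.9%), 28 of 33 in B cell-like (42.6%), 28 of 57 in immature neutrophil-like (69.3%) and 24 of 59 in erythroid-like cells (56.0%). These counts mix cycling and other cells. In other cells alone the summed ratio was 0.07 (-0.01 to 0.15) in B-cell precursor-like cells, against 0.43 over all cells of the class. The corresponding values were 0.21 and 0.59 in B cell-like, 0.11 and 0.38 in HSC and multipotent progenitor-like, and 0.20 and 0.37 in monocyte-like cells. They were 0.29 and 0.20 in immature neutrophil-like and 0.50 and 0.09 in erythroid-like cells. The difference between classes was not tested. Mature neutrophil-like cells gave 0.25 over all their cells, with 11 of 17 members above 0 (60.8%), and 0.04 and 0.10 in other cells of clusters 3 and 4 and 0.53 and 0.22 in clusters 17 and 18. T cell-like cells gave 1.23 over all cells, 15 of 17 members being above 0 (51.2%), but with 7 cycling cells of 206 in ground and 17 of 289 in running; their other cells gave 0.09 (-0.06 to 0.25).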

How the data were processed

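The authors deposited raw UMI counts per gene and cell. Per the file headers they come from Cell Ranger 5.0.0, and the submitters' processing notes name STAR and mm10. Barcodes with at least 500 UMIs, 250 genes and at most 10% mitochondrial UMIs were kept (253 and 293 removed, ground and running), and Scrublet doublets were removed (243, 2.73%, and 100, 1.09%). The libraries share 24 barcodes. Both libraries were clustered jointly on 2000 variable genes without the members (counts scaled to 10000, 30 components, 15 neighbours, Leiden resolution 1). A cluster took the type with most markers among its 10 leading genes. On a tie, or with none there (6 clusters, 5 of them neutrophil-like), the mean fold over a type's markers decided, and at least 3 markers had to be detected. Class names are rebuilt and may differ from the study's. Classes with at least 200 cells in each library were compared. CPM carries exact Poisson intervals, shares exact Clopper-Pearson intervals and ratios exact conditional binomial intervals (95%). The ratio interval alone was tested on simulated data, for cycling over other cells in ground. The simulated counts held Poisson error only, so variation between cells was not covered. With 1 library per group, no test or p-value was computed.

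The members, gene lists and settings were chosen with earlier results of these data known. Named were the 15 members with most UMIs, the 5 highest and 5 lowest ratios of each comparison, the leading member of each family and the 3 highest and 3 lowest genes per list; others were chosen after their values were seen. The value of 1 gene that this rule names is not reported here. Coordinates are from RefSeq, GRCm38.p6. No sequence is shown, since no table with sequences was used here. Software was scanpy 1.11.5, igraph 0.11.9, scikit-learn 1.9.0, pandas 2.3.3, scipy 1.17.1, numpy 2.4.6 and matplotlib 3.10.9 under Python 3.11.15.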

Additional observations from a re-analysis of the deposited data

Results flagged for a closer look

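In 2 members the ratio of cycling over other cells had opposite signs in the libraries. For Hist3h2a the log2 ratio was -0.23 in ground and 0.0832 in running. For Hist1h2bc, an H2B gene, it was -0.19 in ground and 0.0662 in running. Pooled over the marrow, cycling cells in both cases lay slightly below other cells in ground and about level with them in running. The difference between the libraries was not tested. Within classes, Hist3h2a gave -1.19 and -1.06 in B-cell precursor-like, 0.35 and 0.86 in immature neutrophil-like and -0.38 and 0.48 in monocyte-like cells. In erythroid-like cells it gave 1.20 and 1.06, on 2 UMIs and 1 UMI in other cells. The values of Hist1h2bc within classes are given above.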

How the results depend on the processing

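No paired analysis was possible because each group has 1 library. The ratios kept their sign under every alternative run, and members at least 2-fold higher in cycling cells numbered 53 to 59. How cycling cells were found and how cells were weighted mattered most, and the cause was not tested. Cycling over other cells (log2, ground and running) was 3.68 and 3.69 in cells of at least 1000 UMIs, 3.70 and 3.69 with at most 5% mitochondrial UMIs, 3.54 and 3.57 with cycling cells from 1 UMI, 2.38 and 2.44 with the rule applied after thinning to 2000 UMIs, 3.63 and 3.62 with other mitosis genes in the rule, 3.17 and 3.43 as a mean of CPM over cells and 3.24 and 3.16 with the class makeup held. With cycling cells from 4 UMIs it was 3.60 in ground. Chosen after seeing the data were cells of 8000 to 20000 UMIs, at 4.04 and 4.07, and the sum without Hist1h2ap, at 3.21 and 3.13.

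Running over ground in all, cycling and other cells was 0.15, 0.37 and 0.12 as a mean over cells, 0.25, 0.25 and 0.21 with the class makeup held, and 0.17, 0.19 and 0.26 without Hist1h2ap. In all and cycling cells it was 0.27 and 0.30 with at most 5% mitochondrial UMIs and 0.29 and 0.31 with doublets kept. In cycling cells it was 0.32 with the rule from 1 UMI and 0.29 from 4 UMIs, and in other cells 0.23 from 4 UMIs, 0.24 after thinning and 0.31 with other mitosis genes. At 1.5-fold, 1 member differed between the libraries over all cells, against 0 at 2-fold. The share of cycling cells was 33.4%, 19.2% and 15.1% in ground from 1 UMI, from 4 UMIs and after thinning, 28.2%, 17.1% and 12.96% in running, and 23.0% in running with the class makeup held. Limits: 1 library per group, poly(A) capture, rebuilt classes and near-identical gene copies.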
